A study of Arabidopsis thaliana with 12 samples.

Results

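Ribo-minus RNA was set against poly(A)+ RNA in uninduced Arabidopsis thaliana seedlings, using 6 of the 12 libraries of the series. The libraries were chosen by their labels, with 3 biological replicates per fraction, and all 1919 windows of 3000 bp were taken, each read on both strands (3838 strands). The windows are putative intragenic enhancers, and the series asked whether they are transcribed and whether their transcripts carry a poly(A) tail. Both groups are 7-day old seedlings of the RRP41-iRNAi line grown without induction. The first was sequenced as ribo-minus RNA, that is total RNA from which ribosomal RNA had been removed, and the second as polyadenylated RNA from the same extraction. All 6 libraries therefore carry an inducible transgene for RNA interference with RRP41 (a subunit of the RNA exosome), left uninduced, and the labels treat them as wild type. The other 6 libraries are the same fractions of seedlings germinated and grown on 17b-estradiol (induced, rrp41-i), and they are given below only beside the uninduced values. The promoter of the construct is not given in the sources used here, and no window lay over RRP41 itself.

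Poly(A)+ selection catches an RNA by its tail, on oligo(dT), so only the piece of a molecule that is still joined to its tail is kept. Most messenger RNAs and many long noncoding RNAs end in such a tail. The small nuclear RNAs (snRNAs) of the spliceosome do not: their 3′ ends are formed without polyadenylation, and U2, for instance, pairs with the branch point of introns through a short stretch near its 5′ end. Removal of ribosomal RNA keeps molecules with and without a tail, whole or broken.

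The strands that differed most between the fractions held U2 and U4 snRNA sequence, printed here because the largest ratios of the comparison lay on them. Sequences are RefSeq's for TAIR10, 5′ to 3′ on the strand named. For U2 the capitals mark the branch point recognition stretch GTAGTA (bases 34 to 39). Each U2 stretch is 195 bases, the length of the annotated U2.10b/12 gene. That of U2.6 is at chr3:21004493-21004687 (+), that of U2.3 at chr3:21397424-21397618 (−) and U2.10b/12 at chr2:852860-853054 (+). In the windows of U2.6 and U2.3, sequence shared with annotated snRNAs spanned 551 and 871 bases, so these stretches are parts of it. The first 195 bases of AT5G09935, annotated as an RNA of unstated type, are at chr5:26949658-26949852 (+). For U4 the stretch of U4.5 at chr5:8972466-8972616 (−) stands above the one found opposite ACT8 at chr1:18218537-18218687 (−), where capitals mark the bases that differ from U4.5.
U2.6: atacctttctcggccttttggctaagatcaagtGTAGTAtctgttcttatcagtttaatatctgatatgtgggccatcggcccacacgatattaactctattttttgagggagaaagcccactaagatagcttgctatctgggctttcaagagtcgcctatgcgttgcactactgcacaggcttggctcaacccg
U2.3: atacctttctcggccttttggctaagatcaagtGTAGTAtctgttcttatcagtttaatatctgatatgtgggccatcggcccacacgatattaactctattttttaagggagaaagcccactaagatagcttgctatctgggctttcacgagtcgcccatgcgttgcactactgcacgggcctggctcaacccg
U2.10b/12: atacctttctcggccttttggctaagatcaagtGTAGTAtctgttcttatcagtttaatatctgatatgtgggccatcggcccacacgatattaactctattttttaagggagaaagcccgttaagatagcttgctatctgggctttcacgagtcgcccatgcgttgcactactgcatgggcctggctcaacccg
AT5G09935: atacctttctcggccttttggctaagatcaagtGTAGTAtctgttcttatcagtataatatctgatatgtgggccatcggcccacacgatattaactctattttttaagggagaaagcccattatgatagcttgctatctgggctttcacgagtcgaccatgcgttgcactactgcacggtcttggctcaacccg
U4.5: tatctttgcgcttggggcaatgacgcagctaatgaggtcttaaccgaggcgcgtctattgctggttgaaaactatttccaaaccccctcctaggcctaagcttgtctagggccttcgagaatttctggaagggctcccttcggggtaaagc
ACT8 opposite strand: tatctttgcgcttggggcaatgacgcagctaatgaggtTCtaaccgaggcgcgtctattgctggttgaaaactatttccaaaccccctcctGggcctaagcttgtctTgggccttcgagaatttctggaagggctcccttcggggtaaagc
Over these stretches, U2.3 was identical to U2.6 in 190 of 195 bases, U2.10b/12 in 187 and the one named AT5G09935 in 186. The first 54 bases were the same in all 4. The stretch opposite ACT8 matched U4.5 in 147 of 151 bases. How the authors placed reads that match several copies is not given in the sources used here, so signal may be shared among copies, and values of single copies are uncertain.

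Each deposited value is a signal of 1 window on 1 strand, whose scale appears to be set for each library, so a ratio between fractions has no absolute meaning. The total over windows was 22016609 and 22715708 in ribo-minus replicates 2 and 3, against 55822358 to 58489785 in the poly(A)+ libraries. Ribo-minus replicate 1 summed to 9369075 with both strand columns the same in 100% of windows, and it enters only values per window. The smallest value above 0, which appears to stand for about 1 read, was 1005 and 786 in ribo-minus replicates 2 and 3, against 228 to 353 in poly(A)+. The larger of these, 1005, served as a common floor to which lower values were raised. In windows with genes on 1 strand only, 99.1% had more signal on the gene's strand in each of these ribo-minus libraries, against 99.3% to 99.5% in poly(A)+. No window held a gene of the lists for root, phloem, guard cell lineage, shoot meristem or light harvesting, so the tissue could not be checked on markers.

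Of the 3838 strands, 2128 passed the floor in at least 3 of 5 libraries and were tested. The median strand had a log2 ratio of −1.28, that is 2.42-fold more signal in poly(A)+. Each ratio below is relative to it unless another fit or centring is named. By limma, 520 strands in 457 loci were higher in ribo-minus (24.4% of those tested) and 439 strands in 397 loci were lower (20.6%), 45.1% in all at an adjusted p under 0.05. The groups did not overlap, after centring, in 722 strands with a higher (33.9%) and 665 with a lower ratio (31.2%). The split rests on the centring: upper-quartile scaling gave 636 higher and 268 lower, and no centring 67 higher and 1583 lower. Without ribo-minus replicate 2 it was 367 higher and 463 lower, and without poly(A)+ replicate 3 it was 366 higher and 285 lower. Taking both strands of a window together, with all 6 libraries, 444 of 1715 windows were higher (25.9%) and 307 lower (17.9%), 43.8% in all. Without poly(A)+ replicate 1, 2 or 3 the lower windows numbered 193, 187 and 201. Of the 307 lower windows, 95.8% held a strand called lower, and of the 444 higher ones 82.2% held a strand called higher. Libraries of the same replicate number come from the same total RNA, and cell number and RNA per cell cannot be told apart in whole seedlings.

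The ratio followed the signal, as the plot of ratio against signal shows. Among strands whose poly(A)+ mean was under 2010, 257 of 291 were called higher, none lower, and the median was 1.38 on the log2 scale. Among those above 64320, 4 of 187 were called higher and 101 lower, with a median of −0.36. Near the floor only 1 direction could be seen: ribo-minus values were held at 1005 or more, so a strand with less than 2.42 times that in poly(A)+ could not come out lower. For this reason counts are also given over the 1513 strands whose mean passed 5 times the floor (5025) in either fraction. Fitted and centred on their own, 237 of these were higher (15.7%) and 229 lower (15.1%), 30.8% in all. Their median log2 ratio before centring was −1.49. Calls and medians of the ratio given below for these strands come from this fit. In the fit over all strands, the remaining 615 held 354 of the 520 higher calls. Relative to a trend over signal, 316 strands were higher (14.8%) and 234 lower (11%), 25.8% in all.

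**Figure D1:**
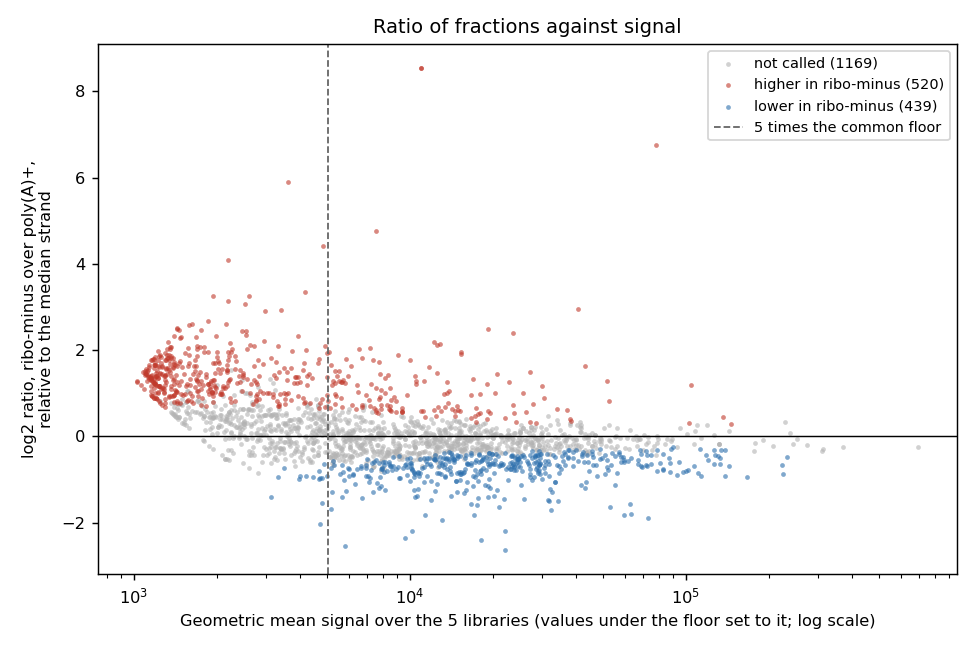
Relative log2 ratio of ribo-minus over poly(A)+ (vertical axis) against the geometric mean signal over the 5 libraries (horizontal, log scale) for the 2128 tested strands. Red points are the 520 higher in ribo-minus and blue the 439 lower; left of the dashed line, at 5025, nearly all called strands are red, and the points above 5 on the vertical axis are the U2 strands.

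U2 strands had the largest ratios of all. The window of U2.6 (chr3:21002933-21005932, +) had a signal of 219852 and 227472 in ribo-minus, against 1026, 2269 and 1332 in poly(A)+. Both ribo-minus libraries were far above all 3 poly(A)+ libraries, and the relative log2 ratio was 8.54 ± 0.30 (SE; limma adjusted p = 1.28e-06). An overlapping window gave the same values. The window of U2.3 (chr3:21396213-21399212, −) had 823612 and 705509 in ribo-minus, against 12307, 23194 and 17267 in poly(A)+, the highest ribo-minus signal among the snRNA strands. Its relative ratio was 6.76 ± 0.23 (limma adjusted p = 1.28e-06). The window of U2.10b/12, which also holds AT2G04435, had 36903 and 16562 in ribo-minus, against 0, 1007 and 589 in poly(A)+. Here the ribo-minus libraries differed widely from each other but did not overlap with poly(A)+, and the ratio was 5.90 ± 0.35 (limma adjusted p = 2.05e-05). With poly(A)+ values at or near the floor, that ratio is set by the floor, and on log2(value + 1) it was 9.51 ± 2.89. Ribo-minus replicate 1, on unseparated strands, had 80128, 319332 and 6503 in the windows of U2.6, U2.3 and U2.10b/12.

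The fourth U2 stretch lay in the window of ARLA1D, a small GTPase of the ARF-like family, and AT5G09935 (chr5:26947751-26950750, +). Its signal was 88813 and 75294 in ribo-minus, against 28702, 19767 and 29365 in poly(A)+. In these libraries the fractions did not overlap, and the ratio was 2.96 ± 0.17 (limma adjusted p = 2.05e-05). Ribo-minus replicate 1, on unseparated strands, had 15480 in this window, below all 3 poly(A)+ values. With both strands together and all 6 libraries, the window had a relative ratio of 2.54 (limma adjusted p = 0.000235). The start of ARLA1D lies in the same window, so the signal of the U2 stretch cannot be told apart from that of the GTPase gene.

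The largest signal that was above the floor only in ribo-minus lay opposite ACT8, which encodes an actin of vegetative tissue, on a strand with no annotated gene. One of its 2 overlapping windows had 24479 and 23165 in ribo-minus, against 564, 451 and 608 in poly(A)+, a ratio of means of 44.0. The other had 25381 and 26508 in ribo-minus, against 564, 478 and 530 in poly(A)+, a ratio of 49.5. Since no poly(A)+ library passed the floor, these strands were not tested. The U4 stretch printed above lies in both windows on this strand. In the induced libraries, which were not used to find them, both strands were tested, with relative ratios of 3.73 and 3.80 (limma adjusted p = 1.53e-05 and 1.64e-05). On the ACT8 strand of the first window the signal was 90792 and 102802 in ribo-minus, against 170983, 163620 and 182548 in poly(A)+.

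Sequence of other snRNAs did not carry a like ratio in each window. In a search made after these values were seen, 14 of 3838 strands shared at least 20 exact words of 25 bases with an annotated snRNA, 4 of them with no snRNA gene annotated on the strand. Of the 6 strands with U2 sequence, 5 had both ribo-minus libraries above all poly(A)+ libraries. The sixth, at the edge of U2.13, had 0 and 0 in ribo-minus, against 0, 686 and 471 in poly(A)+. The window that holds U1.4 and U4.5 together with EIF3B-2, a translation initiation factor subunit, had 19958 and 17154 in ribo-minus, against 22698, 19282 and 16349 in poly(A)+. Its relative ratio was 1.22 ± 0.17 (limma adjusted p = 0.00109), although the deposited values overlapped and the ratio without centring was −0.059. U1.7, in a window with the RING/U-box gene AT3G05670, had 14241 and 9730 in ribo-minus, against 13894, 14773 and 14516 in poly(A)+, with a ratio of 0.99 ± 0.19 (limma adjusted p = 0.00364), or −0.29 without centring. U6-26, in a window with LBD22 and AT3G13857, had 1408 and 1048 in ribo-minus, against 418, 792 and 353 in poly(A)+, and was not tested. The U6.6 window, shared with the cyclase family gene AT4G35220, was lower, at 2307 and 5085 in ribo-minus, against 20476, 21242 and 24201 in poly(A)+ (−1.40 ± 0.29, limma adjusted p = 0.00538). The strand of AT3G55640 and AT3G08565, which holds U5 sequence, had a ratio of −0.52 ± 0.22 (limma adjusted p = 0.0926). In these 5 windows the signal of the snRNA cannot be told apart from that of the longer genes on the same strand.

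**Figure D2:**
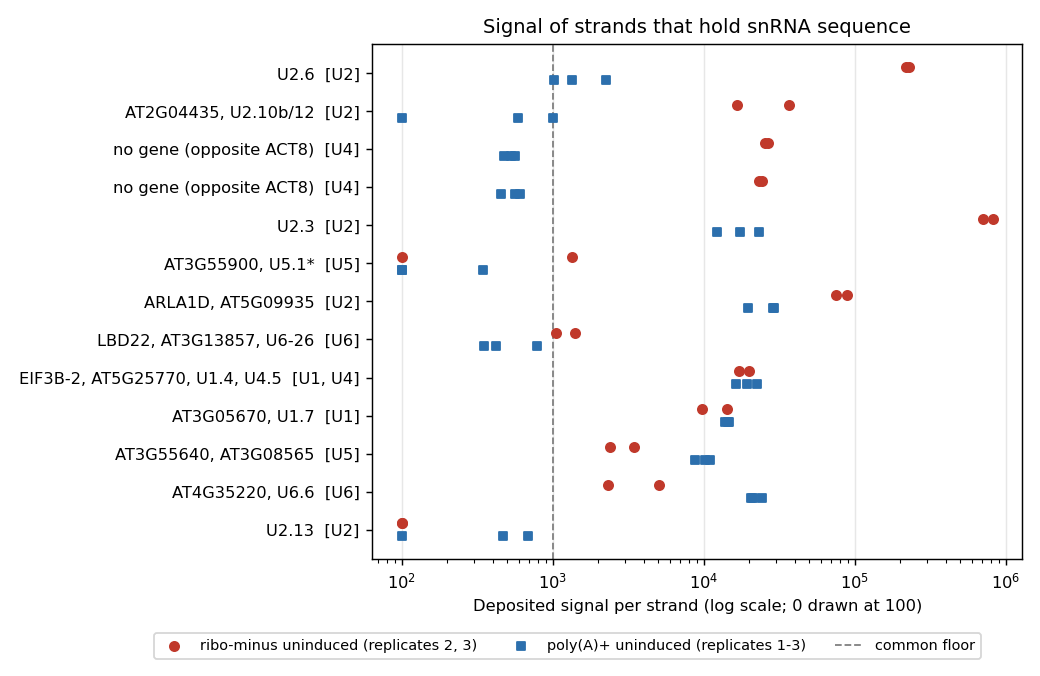
Deposited signal (horizontal axis, log scale, with 0 drawn at 100) of 13 strands that hold snRNA sequence, in each ribo-minus library (red circles) and each poly(A)+ library (blue squares); brackets name the snRNA family and the second, equal window of U2.6 is left out. The U2.6, U2.10b/12, U2.3 and AT5G09935 rows and both rows opposite ACT8 have the circles to the right of the squares and well above the dashed floor.

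Other small RNA genes showed no common direction. Among all tested strands 24.4% were higher and 20.6% lower, and in the separate fit above 5 times the floor 15.7% and 15.1%. Beside those with an snRNA gene, 63 tested strands held a small noncoding RNA gene, of which 9 were higher and 14 lower with a median of −0.06 (3 and 7 of the 45 above 5 times the floor). Of 53 tested strands with a tRNA gene 7 were higher and 14 lower (2 and 7 above 5 times the floor), with a median of −0.07. Of 8 with a miRNA gene 1 was higher and none lower (none of the 5 above 5 times the floor). Of 4 with a small nucleolar RNA gene, 1 was higher and 1 lower. The higher one, AT1G09027 in a window with AT1G68940, had 43277 and 62396 in ribo-minus, against 54388, 46483 and 54983 in poly(A)+, a relative ratio of 1.28 ± 0.15 (limma adjusted p = 0.000542). The lower one, AT1G08353, shares its strand with AT1G60900, the large subunit of the splicing factor U2AF, and had a ratio of −0.84 ± 0.13 (limma adjusted p = 0.00163). Strands with no gene of their own but a gene opposite numbered 1124, of which 63 were tested and 42 were higher, with a median of 1.02. Most of these lay near the floor: 7 passed 5 times the floor, with 2 higher and none lower, and relative to the trend over signal the median of the 63 was −0.09.

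For messenger RNA the position of the window in the gene went with the ratio. Of 1136 tested strands with a single protein-coding gene, 204 held the gene's start and not its end, and of these 141 were higher and 4 lower, with a median of 1.16. The 815 that held the gene's end and not its start had 74 higher and 240 lower, with a median of −0.17. Strands inside a gene had 41 of 63 higher and 3 lower (median 0.77), and those with the whole gene 17 of 54 higher and 2 lower (median 0.32). Among strands with a mean above 5 times the floor in either fraction, 43 of 69 start strands were higher and 3 lower (median 0.88), and 62 of 683 end strands were higher and 129 lower (median −0.07). Of these 69 start strands, 8 passed through ribo-minus alone, where they were high, and 22 through poly(A)+ alone, so the set depends in part on the ratio. The fit over all strands was also read for strands with a geometric mean over the 5 libraries above 5 times the floor. There 32 of 48 start strands were higher and 3 lower (median 0.68), against 21 higher and 230 lower of 626 end strands (median −0.29). The centring differs between the fits, so these counts and medians cannot be set directly against those of the strands fitted on their own. Among strands with a geometric mean of 8040 to 16080, 10 of 12 start strands were higher and none lower, against 9 higher and 52 lower of 187 end strands. At 4020 to 8040, 21 of 40 start strands were higher and 2 lower, against 6 and 31 of 149 end strands. At 16080 to 32160 it was 8 and 1 of 11, against 4 and 89 of 187. Above 32160 the 5 start strands had 2 higher and 1 lower (median 0.02), against 3 and 64 of 134 end strands (median −0.31). Over the strands with a mean above 5 times the floor in either fraction, the median start strand lay below the median end strand by 0.26 on the log2 scale in ribo-minus (−0.27 and −0.26 in the 2 libraries), against 1.52 in poly(A)+ (−1.50, −1.53 and −1.52). The difference of 1.25 was the same sign for every pair of libraries, and its exact two-sided permutation p was 0.2, the smallest that 2 against 3 libraries allow (0.25 adjusted over 5 such tests).

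The ratio was higher the farther the window lay from the end of the gene, where the tail is added. Strands whose window reached the gene's end had a median of −0.15 (869 strands, 91 higher and 242 lower). With 1 to 1000 exonic bases between the window and the end the median was 0.62 (136 strands), and with 1001 to 2000 bases it was 1.36 (96 strands, 79 higher and none lower). At 2001 to 4000 bases it was 2.10, with 28 of 29 strands higher, and beyond 4000 bases it was 3.19, with all 6 tested strands higher. Over the strands with a geometric mean above 5 times the floor the medians of the first 4 classes were −0.28, 0.40, 1.22 and 2.15, over 647, 53, 26 and 4 strands, and no strand of the last class was left. Relative to the trend over signal they were −0.07, 0.25, 0.83, 1.55 and 2.39. Within windows at the gene's end, those with at most 1000 bases of the gene had a median of −0.30 (79 strands with a mean above 5 times the floor in either fraction), against 0.19 in those with 2001 to 3000 bases (62 strands). Across strands Spearman's rho with distance was 0.57 (1136 strands). With the level of the signal it was −0.60, so distance and level both went with the ratio. The same coefficient was −0.04 with the share of intron in the part of the gene inside the window. With gene length it was −0.05 and with the number of exons −0.07. These strands share libraries, and neighbouring windows can share bases.

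**Figure D3:**
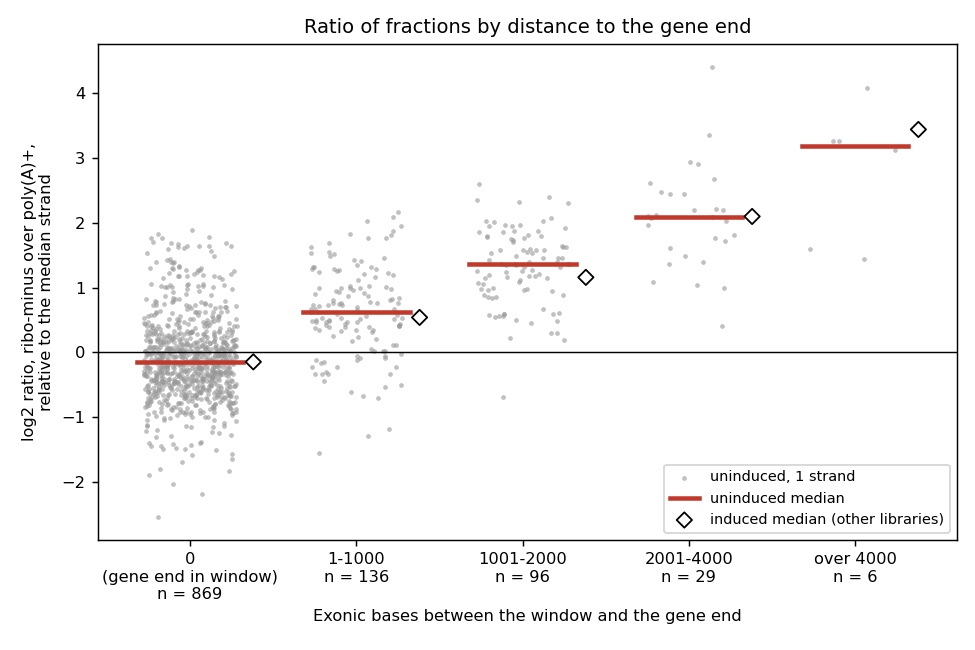
Relative log2 ratio of ribo-minus over poly(A)+ (vertical axis) for strands with a single protein-coding gene, grouped by the exonic bases between the window and the gene's end (horizontal axis). Grey points are strands and red bars their medians, which climb from −0.15 to 3.19; open diamonds are medians of the same classes in the 6 induced libraries, −0.15 to 3.44.

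Among windows with a single protein-coding gene, the largest ratios lay far from the gene's end. AT5G24350, annotated as a neuroblastoma-amplified sequence protein, had 6656 and 7407 in ribo-minus, against 666, 657 and 1007 in poly(A)+, in a window 4574 exonic bases from its end. No poly(A)+ library came near the ribo-minus ones, and the ratio was 4.08 ± 0.22 (limma adjusted p = 2.05e-05). PPC3, a phosphoenolpyruvate carboxylase of carbon metabolism, had 17303 and 18377 in ribo-minus, against 954, 2449 and 3388 in poly(A)+, 2551 bases from its end (4.41 ± 0.45, limma adjusted p = 0.000298). Its 3 poly(A)+ values varied widely but stayed under both ribo-minus values. Ribo-minus replicate 1, on unseparated strands, had 3844 in the PPC3 window. With both strands together and all libraries, that window had a relative ratio of 4.15 (limma adjusted p = 0.000117). EMB3142, a nuclear pore protein, had 8939 and 10823 in ribo-minus, against 2397, 1913 and 2768 in poly(A)+ (3.35 ± 0.24, limma adjusted p = 5.72e-05). GCT, a subunit of the Mediator complex that joins transcription factors to RNA polymerase II, had 6753 and 5202 in ribo-minus, against 2587, 824 and 1305 in poly(A)+ (3.26 ± 0.40, limma adjusted p = 0.000616). AT2G48060, a piezo-type mechanosensitive channel component, had the same ratio, 3.26 ± 0.28, at 6523 bases from its end. SDG25, a histone methyltransferase, had 4446 and 4994 in ribo-minus, against 677, 1407 and 1574 in poly(A)+ (3.13 ± 0.27, limma adjusted p = 0.000161). Of the 12 loci with the largest ratios, these 6 hold a single protein-coding gene, and each of the 6 windows lay at least 2551 exonic bases from the gene's end. The window of TPR3, a TOPLESS-related corepressor, also holds AT5G27035 and had 4391 and 6463 in ribo-minus, against 2270, 1012 and 1552 in poly(A)+ (3.08 ± 0.36, limma adjusted p = 0.000548).

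The largest ratio on a protein-coding strand belonged to the window of CNGC10, a cyclic nucleotide-gated ion channel, and AT1G01320, a tetratricopeptide repeat protein (chr1:130299-133298, −). Its signal was 33024 and 30715 in ribo-minus, against 4129, 2121 and 2683 in poly(A)+. The ratio was 4.75 ± 0.28 (limma adjusted p = 2.05e-05), and replicate 1 of ribo-minus had 24405 in the same window on unseparated strands. CNGC10 and AT1G01320 share the strand, so the signal could not be given to either. The strand did not reach the 20 words shared with annotated snRNAs that the search asked for.

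AT1G67120, annotated as midasin-like protein, whose relatives act in ribosome assembly, gave 2 strands above the floor in ribo-minus only. Its start window had 3682 and 6404 in ribo-minus, against 313, 0 and 625 in poly(A)+, and a window inside the gene had 4023 and 7075, against 724, 483 and 757. With the strands opposite ACT8 these were the 4 with a ribo-minus mean above 5 times the floor among 113 strands (103 loci) detected in both ribo-minus libraries and no poly(A)+ library. Of the 113, 70 held a protein-coding gene and 34 no gene, beside 2450 and 1124 of all 3838 strands, so their make-up was close to that of all strands. Their median signal was 1320, close to the floor. The window of POK2, a kinesin that orients the cell plate, also holds AT3G19045 and had 3391 and 3587 in ribo-minus, against 0, 343 and 0 in poly(A)+. In the opposite direction, 25 strands were above the floor in all 3 poly(A)+ libraries and in neither ribo-minus library, none above 5 times the floor. The highest was the pseudogene or noncoding locus AT3G17110, with 0 and 0 in ribo-minus, against 3668, 3436 and 3478 in poly(A)+. Per library, 2352 ± 72.1 strands were above the floor in ribo-minus (SD, n = 2), against 2119 ± 46.1 in poly(A)+ (SD, n = 3; exact permutation p = 0.2, the smallest possible). At 2 times the floor the difference was a mean of −148 (ribo-minus minus poly(A)+). Windows above the floor numbered 1626 ± 208 in ribo-minus and 1686 ± 20.8 in poly(A)+ (SD, n = 3 each; exact permutation p = 1), with 1386 in ribo-minus replicate 1, and without it ribo-minus had 59.7 more.

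At both ends, 12 genes could be read, in a window at the start and another at the end of the same gene. In 10 of the 12 the start-to-end ratio was higher in both ribo-minus libraries than in all 3 poly(A)+ libraries. These 10 include a gene whose start window had both ribo-minus values at or under the floor. MET1, the maintenance DNA methyltransferase, had 2912 and 2911 in ribo-minus at its start, against 1619, 1980 and 1836 in poly(A)+. At its end it had 8075 and 4101 in ribo-minus, against 19259, 19869 and 19616 in poly(A)+. The same gene was thus higher at its start, at 1.97 ± 0.23 (limma adjusted p = 0.000548), and had −0.49 ± 0.27 at its end (limma adjusted p = 0.169). TES, a kinesin of pollen cell division, had 2253 and 1573 in ribo-minus at its start, against 763, 1240 and 854 in poly(A)+, and at its end 2299 and 1573 in ribo-minus, against 4613, 4981 and 5370 in poly(A)+. UGT80B1, a sterol glucosyltransferase, was higher at its start (1.50 ± 0.22, limma adjusted p = 0.00131) and lower at its end (−1.44 ± 0.19, limma adjusted p = 0.000809), the only one of the 12 called in opposite directions. EIL3, an EIN3-like transcription factor, was higher at both, by 2.03 ± 0.27 and 0.56 ± 0.15. The exceptions to the separation of libraries were AT1G63170, a RING finger protein, and the pentatricopeptide repeat gene AT5G11310, which had 0.80 ± 0.28 at its start and 1.01 ± 0.26 at its end. The median log2 of start over end was −0.11 ± 0.07 in ribo-minus (SD, n = 2) and −1.06 ± 0.09 in poly(A)+ (SD, n = 3), a difference of 0.94 with an exact permutation p of 0.2, the smallest this design allows. The start and end windows overlap in 6 of the 12 genes.

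**Figure D4:**
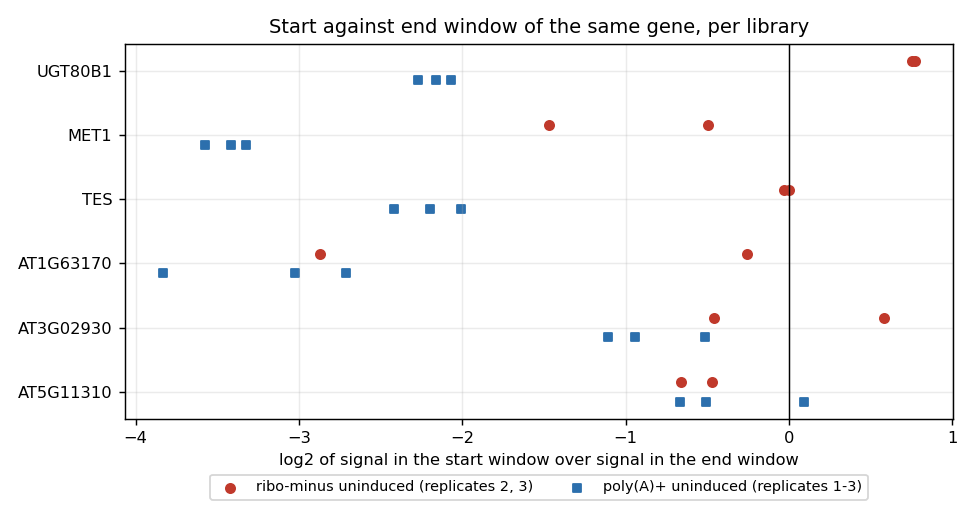
Log2 of the signal in a gene's start window over that in its end window (horizontal axis), for the 6 genes (rows) whose start and end windows do not overlap, in each ribo-minus library (red circles) and each poly(A)+ library (blue squares). In 4 rows, all but AT1G63170 and AT5G11310, both circles lie to the right of all squares; in MET1 the circles are at −1.47 and −0.49 and the squares between −3.57 and −3.33.

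Of the 249 lower strands with a single protein-coding gene, 240 were windows at the gene's end. KTF1, which acts in RNA-directed DNA methylation, had 1341 and 1048 in ribo-minus, against 16939, 16798 and 16626 in poly(A)+, in its end window (−2.55 ± 0.21, limma adjusted p = 0.000130). The ribo-minus values stood just above the floor while the poly(A)+ values lay close together. EIF3C, a translation initiation factor subunit, had 17355 and 21816 in ribo-minus, against 176413, 165185 and 183886 in poly(A)+ (−1.89 ± 0.11, limma adjusted p = 2.05e-05). Pnsl5, a cyclophilin of the chloroplast NDH complex, had 16354 and 16327 in ribo-minus, against 132729, 151326 and 137928 in poly(A)+ (−1.83 ± 0.10, limma adjusted p = 2.05e-05). AT1G42430 and AT4G15030, a purple acid phosphatase-like protein and a folate-sensitive fragile site protein by annotation, had −2.19 ± 0.19 and −2.04 ± 0.24. All 5 are windows at a gene's end, and they are the 5 among the 12 most negative loci that hold a single protein-coding gene. The most negative of all, with the helicase gene AT1G05120, had 4746 and 3933 in ribo-minus, against 43155, 90065 and 70900 in poly(A)+ (−2.64 ± 0.27, limma adjusted p = 0.000326). PMH2, a mitochondrial RNA helicase, shares its window with AT3G22333 and AT3G22337 and had 2095 and 2153 in ribo-minus, against 27268, 24504 and 26999 in poly(A)+ (−2.35 ± 0.15). The windows of GR-RBP5 with AT1G74240, LOL2 with AT4G21620, KNAT3 with AT5G25230, FLA17 with AT5G06400 and CIP1 with AT5G41800 had ratios of −2.39, −2.19, −1.95, −1.84 and −1.83.

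Functional groups were counted from the same limma calls over all strands, beside 24.4% higher and 20.6% lower among all tested. Counts and medians above 5 times the floor come from the separate fit of those strands, beside 15.7% higher and 15.1% lower there. RNA processing genes and helicases leaned lower, with 12 higher and 23 lower of 75 tested (median −0.26), and 6 and 15 of the 61 above 5 times the floor. Its extremes were UVH3, listed for its annotated exonuclease, at 2.68 ± 0.27 in a window inside the gene, and the window of GR-RBP5. Transporters had 33 higher and 20 lower of 115 (median 0.03), and 21 and 13 of the 86 above 5 times the floor, with the strand shared by CNGC10 and AT1G01320 at the top. Protein kinases had 23 higher and 21 lower of 112 (median −0.03), and 10 and 9 of the 81 above 5 times the floor. Among them the receptor-like kinase gene AT1G67720 had 3443 and 4057 in ribo-minus, against 1577, 1968 and 1054 in poly(A)+ at its start (2.61 ± 0.32). KEG, a ubiquitin ligase of abscisic acid signalling, had 2206 and 3420 in ribo-minus, against 14590, 14235 and 17319 in poly(A)+ at its end (−1.20 ± 0.22). Transcription factors had 16 higher and 15 lower of 72 (median −0.12), and 9 and 11 of the 55 above 5 times the floor, from the window of MYB67 (1.81 ± 0.29) to KTF1. Chromatin, repair and replication genes had 11 higher and 14 lower of 49 (median −0.04), and 6 and 7 of the 39 above 5 times the floor, from SDG25 to AT3G53830, an RCC1 family gene (−1.29 ± 0.20). Pentatricopeptide repeat genes, which act on organelle RNA, had 10 higher and 2 lower of 22 (median 0.33). That lean was not there above 5 times the floor, with none higher and 1 lower of 7 (median −0.16). Heat shock and chaperone genes had 7 higher and 13 lower of 37 (median −0.03), and 3 and 7 of the 25 above 5 times the floor. Cytochrome P450 genes had 1 higher and 4 lower of 11, against 2 and 1 of the 9 above 5 times the floor, and cell wall genes had 4 and 8 of 30, against 4 and 4 of 25. Lipid transfer genes had 2 higher and 2 lower of 9 (3 and 1 of 8 above 5 times the floor), F-box genes 4 and 4 of 29 (2 and 2 of 23), and transposon-related genes 3 and 2 of 9 (3 and 1 of 6). Ribosomal proteins had 1 higher and 2 lower of 9, and 0 and 1 of the 8 above 5 times the floor. The higher one, AT2G39590, had 0 and 1048 in ribo-minus, against 1026, 1244 and 471 in poly(A)+, so its ratio of 1.20 rests on the floor, and it was −0.23 relative to the trend over signal. Of the NBS-LRR disease resistance genes 4 were higher and 2 lower of 10 (2 and 2 of the 8 above 5 times the floor). RPS2 had 2883 and 2038 in ribo-minus, against 2117, 2327 and 1668 in poly(A)+ (1.54 ± 0.28, limma adjusted p = 0.00331), on values that overlapped before centring, and did not pass relative to the trend over signal (0.79). SNC1 had 16294 and 15135, against 95448, 145685 and 122268 (−1.65 ± 0.17). The single tested histone strand, with HTA11, was lower (−0.67 ± 0.16, limma adjusted p = 0.0103), though not relative to the trend over signal (−0.37).

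Hormone, flowering and clock regulators had few windows. Of 10 auxin strands 2 were higher and 2 lower. IAA13, a repressor of auxin response, had 4526 and 7452 in ribo-minus, against 6585, 6630 and 7680 in poly(A)+ (1.02 ± 0.24, limma adjusted p = 0.00954), with −0.26 before centring. TIR1, the auxin receptor, had 20187 and 22474 in ribo-minus, against 58369, 58175 and 58654 in poly(A)+ (−0.18 ± 0.10, limma adjusted p = 0.162). SVP, a repressor of flowering, had 13965 and 25901 in ribo-minus, against 89623, 73729 and 100598 in poly(A)+ (−0.92 ± 0.23, limma adjusted p = 0.0121), and did not pass relative to the trend (−0.59). None of the 3 clock strands was called, and the window of LHY and PPa1 had −0.19 ± 0.12 (limma adjusted p = 0.237). CER7, the only exosome gene with a tested strand, had −0.15 ± 0.16 (limma adjusted p = 0.489).

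The strand opposite the genes carried little signal in either fraction. Over 893 windows with genes on 1 strand and signal above the floor in all 5 libraries, the median share of signal on the opposite strand was 0% in both ribo-minus libraries and 0.913%, 0.907% and 1.18% in the poly(A)+ libraries. The exact permutation p was 0.2, the smallest possible. The least value a ribo-minus library could register was 786 or 1005, against 228 to 353 in poly(A)+, so a low share was not detectable in ribo-minus at the same level.

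The same contrast was read in the induced libraries, which share no library with the uninduced ones. There 2108 strands were tested, 518 higher (24.6%) and 457 lower (21.7%), 46.3% in all. Of the 520 strands higher in uninduced seedlings, 430 were tested in induced ones, 418 had the same sign and 335 were called, which is 64.4% of the uninduced and 64.7% of the induced calls. Of the 439 lower strands, 435 had the same sign and 320 were called, 72.9% of the uninduced and 70.0% of the induced calls. The induced fit used the same floor, so agreement of higher strands near it is in part set by the floor. Of the 237 higher strands with a mean above 5 times the floor in either fraction, 223 had the same sign and 157 were called. All 229 lower ones had the same sign and 199 were called. Spearman's rho between the 2 ratios was 0.85 over 2022 strands, which share annotation and sequence. Over the 1513 strands with a mean above 5 times the floor it was 0.80. By distance to the gene's end the induced medians were −0.15, 0.54, 1.16, 2.10 and 3.44. The strand of CNGC10 and AT1G01320 had 4.38, AT5G24350 4.31, KTF1 −2.44 and EIF3C −1.56 in induced libraries. A test of the difference between uninduced and induced ratios called 7 of 2128 strands, 203 passing p under 0.05 unadjusted.

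**Figure D5:**
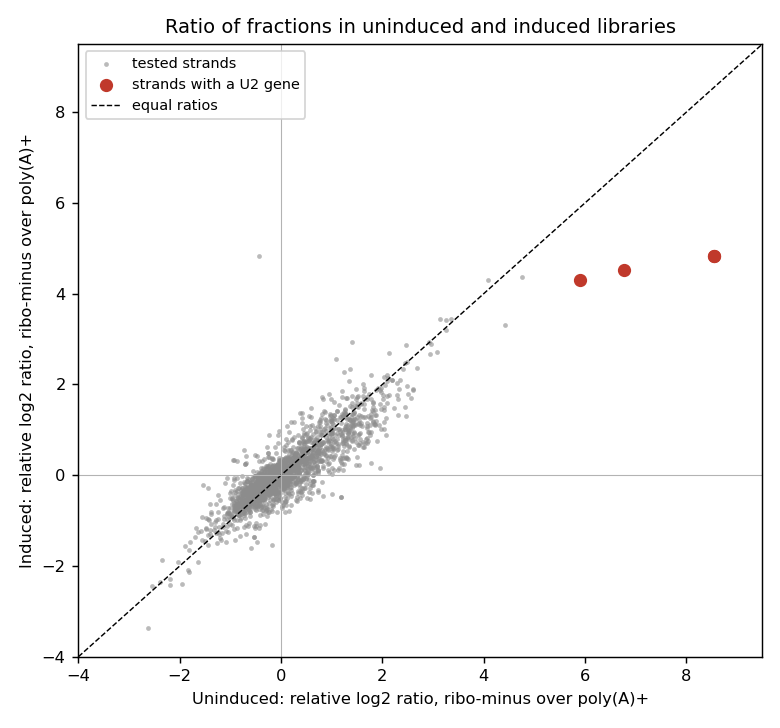
Relative log2 ratio of ribo-minus over poly(A)+ in uninduced libraries (horizontal axis) against the same ratio in induced libraries (vertical axis) for the 2022 strands tested in both. Most points follow the dashed line of equal ratios, with a Spearman's rho of 0.85; the U2 strands (red, 5.90 to 8.54 in uninduced) lie below it.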

How the data were processed

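Per the labels' protocols, each biological replicate gave 1 total RNA sample, used both for a ribo-minus library (TruSeq Stranded Total RNA, Ribo-Zero Plant) and for a poly(A)+ library (TruSeq Stranded mRNA). Per the submitters' processing notes, CASAVA 1.8.2, TopHat2 2.0.9, Cufflinks 2.1.1, Cuffdiff and TAIR10 were used. The authors deposited 1 whole-number signal per window and strand; how it was scaled is not given in the sources used here, so depth in reads is unknown.

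Values at or under a floor of 1005, the smallest value of ribo-minus uninduced replicate 2, were raised to it. Strands above it in at least 3 of 5 libraries were fitted with limma 3.58.1 (R 4.3.3, trended variance, Benjamini-Hochberg, threshold 0.05) on log2 values centred on the median strand. Windows were fitted over 6 libraries, as the sum of strands, or as 1 strand column for ribo-minus uninduced replicate 1. All p-values given for strands and windows come from this limma fit, unless an exact permutation test is named. Errors are SE of the fit or SD over libraries. Python 3.11.15 with scipy 1.17.1 gave the permutation tests.

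Replicate numbers pair the libraries, since both fractions came from the same total RNA. Deviations from the group means correlated at 0.159 and 0.170 for libraries of the same number (2128 strands), against −0.170 to 0.0177 otherwise. As the deviations of the strand-separated ribo-minus libraries from their mean mirror each other, each negative value repeats a positive value with its sign turned. The contrast is therefore no separate test of the pairing.

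Genes were named by rule: among called strands whose groups did not overlap, joined into loci, the 12 largest ratios in each direction; tested strands with an snRNA or small nucleolar RNA gene; the 8 highest strands detected only in ribo-minus; and the extremes of each gene list. The pairs are all genes with both a start and an end window, of which 1 is counted but not reported here by its own values; AT3G17110, TIR1, LHY, CER7 and the ACT8 strand were added. Members, lists and tests were chosen with earlier results of these data known, and the snRNA sequence search, the restriction to 5 times the floor the geometric mean above it and the trend over signal were chosen after the values were seen. Coordinates are 1-based.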

Additional observations from a re-analysis of the deposited data

Results flagged for a closer look

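The ratio of ribo-minus over poly(A)+ on the U2.6 and U2.3 strands differed between uninduced and induced seedlings (limma test of that difference, Benjamini-Hochberg over 2128 strands). The other tested strands with U2 sequence were not called. Their differences were 1.60 ± 0.60 for U2.10b/12 (SE, limma adjusted p = 0.426) and 0.07 ± 0.21 for ARLA1D with AT5G09935 (limma adjusted p = 0.956). For U2.6, in each of its 2 overlapping windows, the uninduced ratio exceeded the induced one by 3.73 ± 0.47 on the log2 scale (SE, adjusted p = 0.00386). In induced seedlings U2.6 had 230663, 263325 and 205147 in ribo-minus, against 16032, 16328 and 37167 in poly(A)+, so the ribo-minus values were near the uninduced ones and the poly(A)+ values were above them. For U2.3 the uninduced ratio exceeded the induced one by 2.25 ± 0.38 (adjusted p = 0.0296). In induced seedlings U2.3 had 751260, 907579 and 676143 in ribo-minus, against 69997, 74191 and 128506 in poly(A)+. Within induced seedlings both ribo-minus groups still lay above all poly(A)+ libraries, with relative ratios of 4.82 for U2.6 and 4.53 for U2.3.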

How the results depend on the processing

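Counts of calls moved by more than 1.5 times from 959 strands and 751 windows in these settings. Without centring, 1650 strands and 1330 windows were called, most of them lower. Strands above the floor in at least 1 library gave 1715 calls, and windows above it in every library 469. Above 5 times the floor in every library, 352 strands and 157 windows were called, relative to the trend over signal 550 and 441, and 466 strands with a mean above 5 times the floor in either fraction. Some of these settings test fewer features; beyond that, the cause was not tested. Leaving out each library in turn gave 651 to 951 strands and 535 to 786 windows.

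The fit with the replicate block, which pairs libraries of the same RNA, called 938 strands (505 higher and 433 lower) and 834 windows, moved neither count by 1.5 times and changed the call of none of the 58 named strands.

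The difference in strands above the floor per library was 182.3 to 284.3 with a library left out, and −148 at 2 times the floor. For windows it was −121.8 to 59.7, positive only without ribo-minus uninduced replicate 1. The start-to-end difference stayed at 0.89 to 0.99 over the 12 genes and 1.25 to 1.26 over strands, and the opposite-strand share at −1.04 to −0.91.

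Of 1074 values for 58 named strands under other settings, 1016 kept direction and side of the threshold, 46 fell short of it, 2 passed it and 10 turned sign. Without centring these were U1.7 with AT3G05670 (−0.29), EIF3B-2 with U1.4 and U4.5 (−0.059), AT2G39590 (−0.082), CYP711A1 (−0.69), AT1G52420 (−0.061) and IAA13 (−0.26). With log2(value + 1) they were AT2G39590 (−3.39) and the tRNA strand AT3G51265 (−3.15), each with a ribo-minus library at 0. AT2G39590 also had −0.20 with log2(value + 100) and −0.23 relative to the trend.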

Other observations

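Beside the U2.6 and U2.3 strands, 4 strands differed between uninduced and induced seedlings in the ratio of the fractions (limma, adjusted over 2128 strands). The window of AT5G53850 and AT5G53840 had 15884 and 16491 in uninduced ribo-minus, against 52261, 55081 and 51629 in uninduced poly(A)+. In induced seedlings it had 2564001, 3498907 and 2310257 in ribo-minus, against 377149, 509682 and 82530 in poly(A)+. The uninduced ratio was thus below the induced one, with a difference of −5.26 ± 0.74 on the log2 scale (SE, adjusted p = 0.00755). The strand opposite AT1G70450 had −1.59 ± 0.29, AT3G07730 1.30 ± 0.24 and AT5G63370 0.77 ± 0.13. The strand opposite AT1G70450 had 0 and 0 in uninduced ribo-minus, against 3658, 2518 and 2475 in uninduced poly(A)+. In induced seedlings it had 0, 143 and 178 in ribo-minus, against 901, 725 and 0 in poly(A)+. Only its uninduced poly(A)+ values passed the floor, so its difference rests on these alone. Its ratio within induced seedlings was not tested. AT3G07730 had 1220, 763 and 588 in induced ribo-minus, of which 763 and 588 lay under the floor.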
